A study of Mus musculus with 18 samples.

Results

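Tmem86b, Necap2, Atat1, Abhd14b, Uvssa, Podxl, Ppp1r12b, Gabbr1, Lrrcc1 and Pde3b are 10 mouse genes whose RNA differed between Ptbp1 KO and WT blood-forming cells of the bone marrow. They are 10 of the 53458 genes with a transcript in the annotation, and all 10 are among the 21565 that passed a filter on low counts. The list was selected on the KO against WT difference in gene counts of these same libraries, so every KO against WT value of the 10 genes is a description and carries no test. The question put to them is whether a change of the gene went with a switch between protein-coding transcripts and transcripts annotated as non-coding or as targets of nonsense-mediated decay (NMD).

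The libraries are bulk total RNA from C57BL/6 mice, in 6 groups of 3. Of each population there are cells of Ptbp1 KO animals (also written Ptbp1 -/-) and of Ptbp1 fl/fl animals, called WT here. The 3 populations were sorted by flow cytometry. HSC, hematopoietic stem cells, were positive for Sca-1, c-kit and CD150 and negative for lineage markers and CD48. PreMegE, progenitors of megakaryocytes and red cells, were positive for c-kit and CD150 and negative for lineage markers, Sca-1, CD41, FcgRII/III and CD105. PreCFU-E, the next step toward red cells, had the same markers as preMegE except that they were positive for CD105. The sources used here do not give the age of the animals, the Cre that deleted Ptbp1 or the cells in which it acted.

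PTBP1 binds pyrimidine-rich stretches of RNA and often keeps nearby exons out of the mature transcript. Where an exon of a length that is not a multiple of the codon is included or skipped, the reading frame shifts, and a stop codon can come to lie ahead of a later exon junction. Such a transcript is a target of NMD, which degrades it, so a splicing change can lower the level of a gene's RNA as well as alter it. In bulk samples of this kind, fewer cells with a transcript and less of it per cell cannot be told apart.

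Total estimated counts ran from 15956408 to 29226287 reads per library. Ptbp1 itself was at 90.3 to 108 CPM (counts scaled to library size) in KO HSC, against 196 to 221 CPM in WT HSC, and its groups were also apart in preMegE (187 to 232 against 595 to 787 CPM) and preCFU-E (298 to 318 against 1116 to 1345 CPM). The HSC surface genes Kit and Slamf1 were present in all HSC libraries, Cd48 was at most 2.69 CPM there, and the summed erythroid markers were at 5451 to 5631 CPM in KO and 4867 to 6090 CPM in WT preCFU-E. Some marker sums were apart between genotypes. Erythroid markers were at 3.95 to 22.2 CPM in KO and 28 to 48.9 CPM in WT HSC. Cd48 was at 0.833 to 2.69 CPM in KO and 0 to 0.533 CPM in WT HSC. Kit with Slamf1 was at 563 to 625 CPM in KO and 522 to 553 CPM in WT HSC. In preMegE, megakaryocyte markers were at 47.9 to 86.1 CPM in KO and 97.8 to 122 CPM in WT. Genes of CD41 and FcgRII/III were at 44.4 to 72.7 CPM in KO and 78.7 to 98.7 CPM in WT preMegE. In preCFU-E, Cd48 was at 45.3 to 65.1 CPM in KO and 29.2 to 36.7 CPM in WT. Macrophage markers were at 1.35 to 1.74 CPM in KO and 2.18 to 3.75 CPM in WT preCFU-E. Endothelial and stromal markers were apart in preCFU-E too, as given below. The part of these in the values of the 10 genes was not tested. The KO HSC library 2 stood apart from KO HSC libraries 1 and 3 for several of the 10 genes, and HSC values without it are given where they matter. Every HSC library held 6434 to 8617 CPM of Xist, whereas every progenitor library held at most 1.09 CPM and carried the Y-linked Eif2s3y at 38.3 to 85.2 CPM, so the sex of the animals and the cell type cannot be told apart between HSC and progenitors. In each population the KO and WT ranges of Xist and of Eif2s3y overlapped.

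By edgeR's quasi-likelihood test over all genes at an adjusted p below 0.05, 5 of the 10 genes were called in HSC, 4 of the 10 in preMegE and 9 of the 10 in preCFU-E. Over all genes the called share was 0.844% for HSC, 0.0603% for preMegE and 0.153% for preCFU-E, and since the list came from these same calls nothing is read from the difference. Of 13 genes called in at least 2 populations, 7 are in the list, and only Tmem86b among them was called in all 3. Gabbr1 and Lrrcc1 were called in preCFU-E alone and Pde3b in preMegE alone. Nearest to the threshold, Ppp1r12b and Podxl in HSC lay just inside (adjusted p of edgeR 0.0495 and 0.0411), and Abhd14b and Ppp1r12b in preMegE just outside (0.0564 and 0.0629).

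KO and WT libraries did not overlap for 5 of the 10 genes in HSC (background 12.1% of all genes), 9 in preMegE (12.3%) and all 10 in preCFU-E (14%). A fitted change of at least 2-fold was found for 4 of them in HSC (background 15.5%), 6 in preMegE (11.8%) and 9 in preCFU-E (12.9%). For HSC, preMegE and preCFU-E, the median absolute log2 change of the 10 was 0.58, 1.11 and 1.51, beside 0.35, 0.26 and 0.22 over all genes. These numbers describe how the list was chosen.

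**Figure D1:**
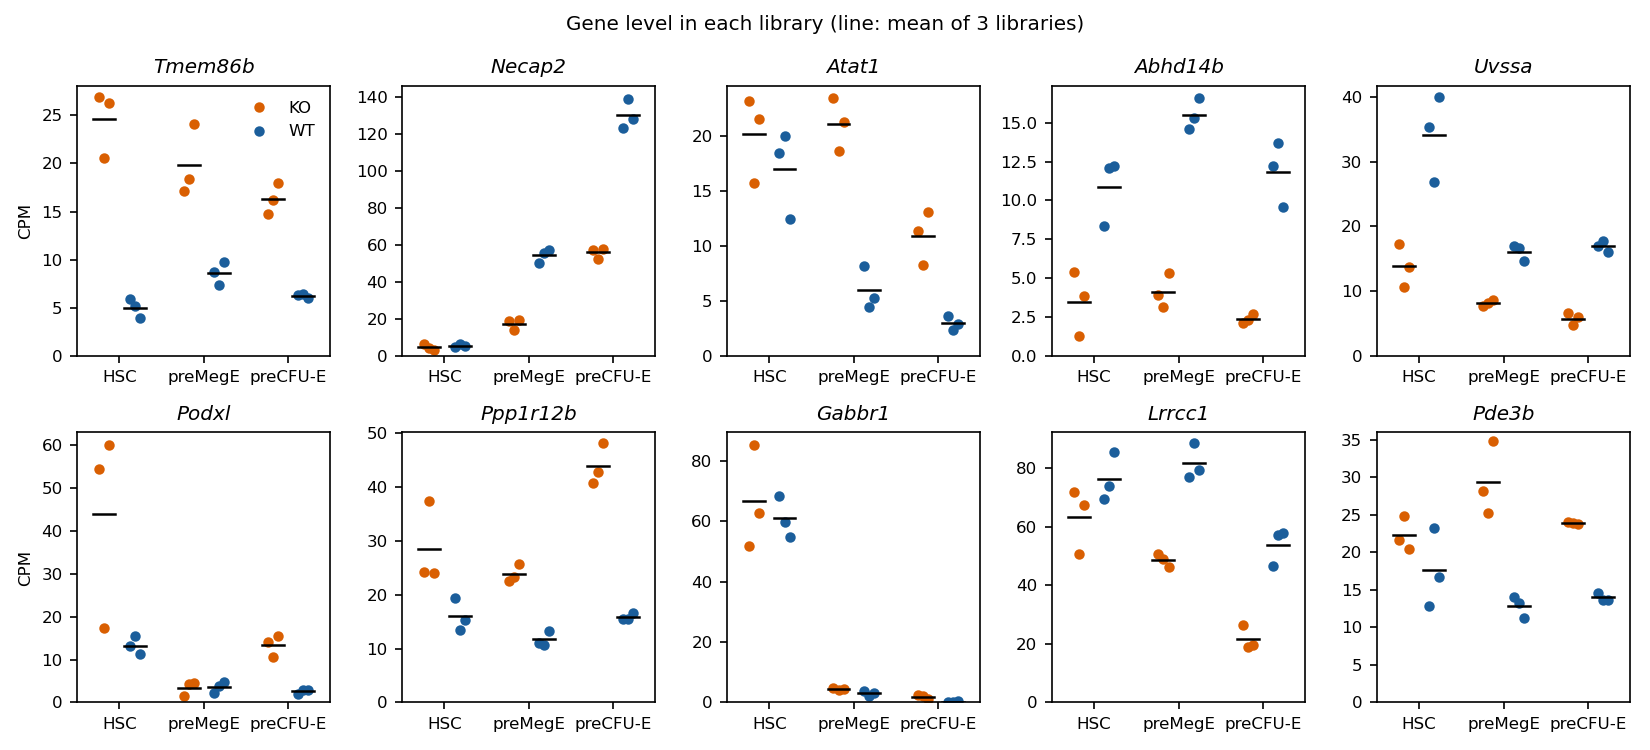
Level of each of the 10 genes in every library, in CPM on a linear axis that starts at 0, with KO left of WT in each population and a line at the mean of 3 libraries. KO and WT points are apart for all 10 genes in preCFU-E and mixed for Necap2, Atat1, Gabbr1, Lrrcc1 and Pde3b in HSC.

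Among the genes for enzymes, Tmem86b differed in all 3 populations. It encodes a lysoplasmalogenase, which cleaves the ether lipids left when plasmalogens lose a fatty acid, and lies at chr7:4628040-4631422 on the minus strand of GRCm38. It had 26.9, 20.6 and 26.3 CPM in KO HSC, against 5.94, 5.16 and 3.93 CPM in WT HSC. In preMegE it had 17.1, 18.4 and 24.1 CPM in KO and 8.73, 7.35 and 9.75 CPM in WT, and in preCFU-E 14.7, 16.2 and 18 CPM in KO and 6.3, 6.45 and 6.04 CPM in WT. No KO library overlapped a WT library in any population. Its log2 change was 2.29 in HSC (SE 0.23), 1.21 in preMegE (SE 0.22) and 1.38 in preCFU-E (SE 0.22).

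All 4 annotated transcripts of Tmem86b are protein-coding, so no switch to a non-coding transcript can be seen in this gene. The difference was not even among them. In preCFU-E, Tmem86b-202 had 4.7, 4.76 and 7.43 TPM (an abundance corrected for transcript length) in KO and 0.914, 1.5 and 1.49 TPM in WT. Tmem86b-203 had 4.55, 5.34 and 5.78 TPM in KO and 3.77, 3.91 and 3.88 TPM in WT, again without overlap but with a much smaller difference. In KO HSC the reads of library 2 were given to Tmem86b-201 (23 TPM, against 4.77 and 6.88 TPM in KO libraries 1 and 3), while Tmem86b-202 had 25.7, 2.45 and 22 TPM, so the division between these 2 transcripts was not stable. An antisense gene, Gm44877, overlaps Tmem86b, and with strandedness not given in the sources used here its reads cannot be told apart from those of Tmem86b.

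Atat1 encodes the acetyltransferase that acetylates alpha-tubulin inside the microtubule, and lies at chr17:35897595-35910075 on the minus strand, overlapped by the antisense gene Gm16279. It had 23.5, 18.6 and 21.3 CPM in KO preMegE, against 8.16, 4.48 and 5.23 CPM in WT preMegE. In preCFU-E it had 11.4, 8.23 and 13.1 CPM in KO and 3.6, 2.34 and 2.91 CPM in WT. The HSC libraries overlapped, at 23.2, 15.7 and 21.6 CPM in KO and 18.5, 20 and 12.5 CPM in WT. The log2 change was 0.25 (SE 0.26) in HSC, 1.83 (SE 0.28) in preMegE and 1.88 (SE 0.29) in preCFU-E. With length-scaled counts, which weigh reads by transcript length, it was -0.17, 1.18 and 1.39 in HSC, preMegE and preCFU-E.

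Abhd14b encodes an alpha/beta hydrolase and lies at chr9:106447459-106452923 on the plus strand. It had 5.37, 1.27 and 3.85 CPM in KO HSC, against 8.34, 12.1 and 12.2 CPM in WT HSC. In preMegE it had 3.89, 3.14 and 5.35 CPM in KO and 14.6, 15.3 and 16.6 CPM in WT, and in preCFU-E 2.13, 2.34 and 2.72 CPM in KO and 12.2, 13.7 and 9.6 CPM in WT. It was lower in every KO library than in every WT library of its population, with log2 changes of -1.63 (SE 0.36), -1.90 (SE 0.37) and -2.30 (SE 0.38). Without KO HSC library 2, the lowest, the HSC change was -1.23.

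All 10 annotated transcripts of Abhd14b are protein-coding too, so its lower level cannot be set against an annotated NMD form. Abhd14b-210 had 2.36, 2.64 and 1.76 TPM in KO preMegE, against 6.56, 9.48 and 15.9 TPM in WT preMegE. In preCFU-E it was listed at 0 in KO libraries 1 and 2 and at 1.23 TPM in KO library 3, against 6.69, 7.38 and 4.68 TPM in WT. Its paralog Abhd14a overlaps it on the opposite strand. Abhd14a changed by -0.11, 0.09 and 0.48 on the log2 scale in HSC, preMegE and preCFU-E, none of them called by edgeR.

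Pde3b encodes a phosphodiesterase that breaks down cyclic AMP and cyclic GMP, and lies at chr7:114415281-114539251 on the plus strand. It had 28.2, 25.2 and 34.8 CPM in KO preMegE, against 14.1, 13.2 and 11.3 CPM in WT preMegE. In preCFU-E it had 24, 23.9 and 23.8 CPM in KO and 14.6, 13.7 and 13.7 CPM in WT, also apart. In HSC the groups overlapped, at 21.7, 24.9 and 20.4 CPM in KO and 12.9, 23.3 and 16.7 CPM in WT. The log2 change was 0.34 (SE 0.21), 1.19 (SE 0.21) and 0.77 (SE 0.21) in HSC, preMegE and preCFU-E. Its single coding transcript, Pde3b-201, accounted for the difference, with 4.14, 4.08 and 4.91 TPM in KO preMegE and 1.88, 2.45 and 1.99 TPM in WT preMegE.

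Ppp1r12b encodes a targeting subunit of myosin phosphatase, which directs the phosphatase to myosin, and lies at chr1:134754658-134955942 on the minus strand, with Syt2 overlapping on the other strand. It had 24.2, 37.5 and 24 CPM in KO HSC, against 19.4, 13.4 and 15.3 CPM in WT HSC. In preMegE it had 22.5, 23.3 and 25.8 CPM in KO and 11.1, 10.7 and 13.3 CPM in WT. In preCFU-E it had 40.8, 42.8 and 48.3 CPM in KO and 15.6, 15.5 and 16.6 CPM in WT. All 3 populations were apart, with log2 changes of 0.83 (SE 0.20), 1.03 (SE 0.20) and 1.47 (SE 0.20). Without KO HSC library 2, the highest, the HSC change was 0.58. With length-scaled counts the changes were -0.72, 0.61 and 0.63 in HSC, preMegE and preCFU-E, so the HSC direction depends on how transcripts are weighted.

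Necap2 encodes a protein that binds the clathrin adaptor complexes in vesicle traffic, and lies at chr4:141066512-141078357 on the minus strand. It had 18.6, 13.9 and 19.5 CPM in KO preMegE, against 50.3, 55.8 and 57.2 CPM in WT preMegE. In preCFU-E it had 57.4, 52.6 and 57.8 CPM in KO and 123, 139 and 128 CPM in WT. In HSC the groups overlapped at a low level, 6.29, 4.52 and 3.36 CPM in KO and 4.72, 6.62 and 5.39 CPM in WT. The log2 change was -0.23 (SE 0.20), -1.65 (SE 0.19) and -1.22 (SE 0.19) in HSC, preMegE and preCFU-E.

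Lrrcc1 encodes a protein of the centriole, and lies at chr3:14533788-14572658 on the plus strand. It was lower in KO in both progenitors, with 50.6, 49 and 46.3 CPM in KO and 76.9, 88.6 and 79.2 CPM in WT preMegE, and with 26.4, 18.9 and 19.6 CPM in KO and 46.7, 57.2 and 57.7 CPM in WT preCFU-E. HSC libraries overlapped, at 71.9, 50.7 and 67.2 CPM in KO and 69.4, 73.7 and 85.6 CPM in WT. The log2 change was -0.27 (SE 0.16), -0.75 (SE 0.16) and -1.32 (SE 0.17), so Lrrcc1 differed by under 2-fold outside preCFU-E.

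Uvssa encodes a scaffold protein of transcription-coupled DNA repair, and lies at chr5:33378549-33419754 on the plus strand. It had 17.2, 10.6 and 13.8 CPM in KO HSC, against 35.4, 26.8 and 39.9 CPM in WT HSC. In preMegE it had 7.77, 8.17 and 8.69 CPM in KO and 16.9, 16.7 and 14.6 CPM in WT, and in preCFU-E 6.6, 4.74 and 5.98 CPM in KO and 17, 17.7 and 16.1 CPM in WT. KO was lower without overlap in all 3 populations, with log2 changes of -1.30 (SE 0.22), -0.97 (SE 0.22) and -1.55 (SE 0.22).

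Podxl and Gabbr1 encode proteins of the cell surface. Podxl, podocalyxin, is a sialomucin of the CD34 family and lies at chr6:31519488-31563981 on the minus strand. It had 54.5, 17.3 and 60.1 CPM in KO HSC, against 13.2, 15.4 and 11.2 CPM in WT HSC, and KO library 2 lay close to the WT libraries. In preCFU-E it had 14.2, 10.6 and 15.5 CPM in KO and 2.07, 2.91 and 2.91 CPM in WT. In preMegE the groups overlapped fully, at 1.48, 4.25 and 4.43 CPM in KO and 2.1, 3.9 and 4.66 CPM in WT. The log2 change was 1.73 (SE 0.40), -0.06 (SE 0.42) and 2.36 (SE 0.43), and 2.11 in HSC without KO library 2. With length-scaled counts the HSC change was smaller, at 1.09.

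Podxl is also made by endothelial cells and megakaryocytes. Over 7 endothelial and stromal markers, of which 6 passed the filter, the summed level was 44.3 to 52 CPM in KO and 44.9 to 72.1 CPM in WT HSC, and 6.48 to 8.51 CPM in KO and 8.82 to 12.7 CPM in WT preCFU-E. Over 5 megakaryocyte markers it was 32.9 to 94.8 CPM in KO and 55.5 to 91.4 CPM in WT HSC, and 3.79 to 5.89 CPM in KO and 3.91 to 4.99 CPM in WT preCFU-E. Among the endothelial markers in HSC, Kdr was at 4.73 to 10.4 CPM in KO and 2.85 to 4.84 CPM in WT and Emcn at 7.25 to 8.94 CPM in KO and 13.4 to 17.7 CPM in WT. Cdh5, which defines endothelium and did not pass the filter, was at 0 in KO HSC and at 0.114 to 1.46 CPM in WT HSC. The part of endothelial cells and of megakaryocytes in the Podxl values was not tested.

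Gabbr1 encodes a subunit of the receptor for GABA that couples to G proteins, and lies at chr17:37045966-37075067 on the plus strand. In preCFU-E it had 2.48, 1.98 and 1.28 CPM in KO, against 0.196, 0.208 and 0.427 CPM in WT. That is 24 to 35 reads in KO and 4 to 6 reads in WT, so its log2 change of 2.84 (SE 0.39) rests on few reads. In preMegE it had 4.82, 4.18 and 4.43 CPM in KO and 3.84, 2.2 and 2.97 CPM in WT, with a log2 change of 0.58 (SE 0.26). In HSC, where the gene was highest, it had 51.8, 85.1 and 62.8 CPM in KO and 68.3, 59.8 and 54.9 CPM in WT, with a log2 change of 0.13 (SE 0.23) and of -0.09 without KO library 2.

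**Figure D2:**
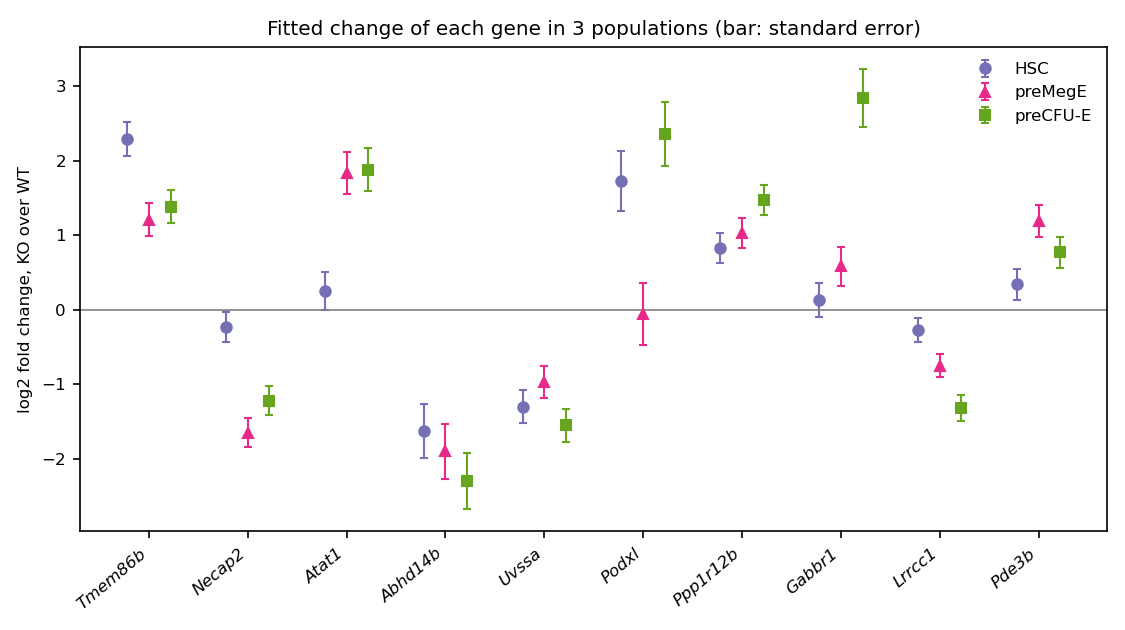
Fitted log2 change, KO over WT, of each of the 10 genes in HSC, preMegE and preCFU-E, with its standard error. Values run from -2.30 (Abhd14b, preCFU-E) to 2.84 (Gabbr1, preCFU-E), and only Podxl in preMegE, at -0.06 (0.15 without WT library 3 and 0.29 without KO library 1), goes against the gene's direction in the other populations.

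The WT libraries show how the 10 genes behave along the pathway, a comparison the list did not use, although the WT libraries are shared with the KO against WT values. Between WT preMegE and WT HSC, 6 of the 10 genes were called by edgeR, 2 higher and 4 lower, beside 53.7% of all genes (25.5% higher and 28.2% lower). Necap2 averaged 54.4 ± 3.62 CPM in WT preMegE and 5.58 ± 0.965 CPM in WT HSC (SD, n = 3 each), a log2 rise of 3.29 with an edgeR adjusted p of 1.08e-10. Tmem86b also rose, to 8.61 ± 1.2 CPM in WT preMegE against 5.01 ± 1.01 CPM in WT HSC (log2 0.78, adjusted p by edgeR 0.00662). Every one of these 6 calls held in all the alternatives tried.

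Gabbr1 fell to 3 ± 0.817 CPM in WT preMegE, against 61 ± 6.79 CPM in WT HSC, a 20.3-fold difference (log2 -4.34, edgeR adjusted p 1.08e-10). Podxl (log2 -1.90, 0.000725), Atat1 (-1.51, 0.000123) and Uvssa (-1.08, 0.000301) fell as well, each with its edgeR adjusted p. Abhd14b (log2 0.51, adjusted p 0.214 by edgeR), Lrrcc1 (0.10, 0.612), Ppp1r12b (-0.46, 0.0593) and Pde3b (-0.46, 0.0674) did not pass. Ppp1r12b and Pde3b passed in edgeR with RLE factors (0.0342 and 0.0399), in DESeq2 (0.0205 and 0.0242), and without WT HSC library 2 for Ppp1r12b (0.037) or library 1 for Pde3b (0.0255), so these 2 lie at the threshold. With length-scaled counts Abhd14b (log2 1.25, edgeR adjusted p 0.0217) and Ppp1r12b (-1.58, 0.0278) passed as well. The HSC and preMegE animals differ in sex, as given above, and its part in these steps was not tested.

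Between WT preCFU-E and WT preMegE, both of the same sex by these genes, 4 of the 10 were called by edgeR, 1 higher and 3 lower, beside 26.8% of all genes (15.6% higher and 11.2% lower). Necap2 rose again, to 130 ± 8 CPM in WT preCFU-E against 54.4 ± 3.62 CPM in WT preMegE (SD, n = 3 each; log2 1.26, edgeR adjusted p 2.39e-05). Gabbr1 fell to 0.277 ± 0.13 CPM in WT preCFU-E, against 3 ± 0.817 CPM in WT preMegE, 11.4-fold lower (log2 -3.50, edgeR adjusted p 2.59e-07). Atat1 fell to 2.95 ± 0.629 CPM, against 5.96 ± 1.94 CPM in WT preMegE (log2 -1.01, edgeR adjusted p 0.0106), and Lrrcc1 to 53.9 ± 6.21 CPM, against 81.6 ± 6.17 CPM (log2 -0.60, edgeR adjusted p 0.00756). The Atat1 call was lost without WT preMegE library 1 (adjusted p 0.0921, edgeR) or WT preCFU-E library 2 (0.0632), and that of Lrrcc1 with length-scaled counts (0.233).

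Same-numbered WT preMegE and preCFU-E libraries deviated together. Fitted on those 2 groups alone with the replicate number as a block, Tmem86b (log2 -0.59, edgeR adjusted p 0.00446) and Abhd14b (-0.53, 0.00207) were also lower in WT preCFU-E than in WT preMegE. Both were called without the block in that smaller fit as well (0.0135 and 0.011), and neither was called when all 18 libraries shared 1 estimate of the spread (0.145 and 0.461). Uvssa, Podxl, Ppp1r12b and Pde3b were not called at this step in any of these fits.

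Set beside each other, the genes follow the pathway in different orders. WT Necap2 climbed at each step, whereas WT Gabbr1 and WT Atat1 fell at each. KO levels of Atat1 in preMegE (mean log2 change 1.83 over WT) and of Gabbr1 in preCFU-E (2.84) were above their falling WT levels, and the KO level of Necap2 in preMegE (-1.65) was below its climbing WT level. The 2 sets of values share the WT libraries, so their likeness is not a result.

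The gene most like each of the 10 was found by Pearson's r of log2 CPM over the 18 libraries, among 9920 genes whose log2 CPM averaged 2 or more. Gabbr1 was most like Diaph2 (r = 0.973) and Necap2 most like Tbcd (0.970), genes that follow the same steep pathway difference. Abhd14b was most like Dnmt3b (0.916) and Uvssa most like Mlkl (0.877), and both of those are among the 13 genes called in at least 2 populations. Tmem86b had the loosest match (Fbxo21, 0.740), and the other 5 lay from 0.835 (Pde3b with Ocel1) to 0.910 (Atat1 with Gm29170). The 18 points share 3 cell types and 2 genotypes, so these values are descriptions.

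Transcript values were then set beside the gene values. Of the 10 genes, 8 have both protein-coding transcripts and others (NMD targets, retained introns or processed transcripts), called noncoding below. In 24 of the 30 pairs of a gene and a population KO and WT libraries did not overlap, and 18 of those 24 are in the 8 genes. In 17 of the 18 the coding transcripts alone were also apart, in the same direction as the gene (background 69.1% of 4453 such pairs over all genes with both kinds of transcript). In 16 of the 18, at least 85% of the CPM difference lay in the coding transcripts, over a range of 48.8% to 103% (background 66.6%). The genes were listed for large differences in these same gene counts, of which coding reads are a part. The background pairs were not chosen in that way, so nothing is read from the distance to the background.

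**Figure D3:**
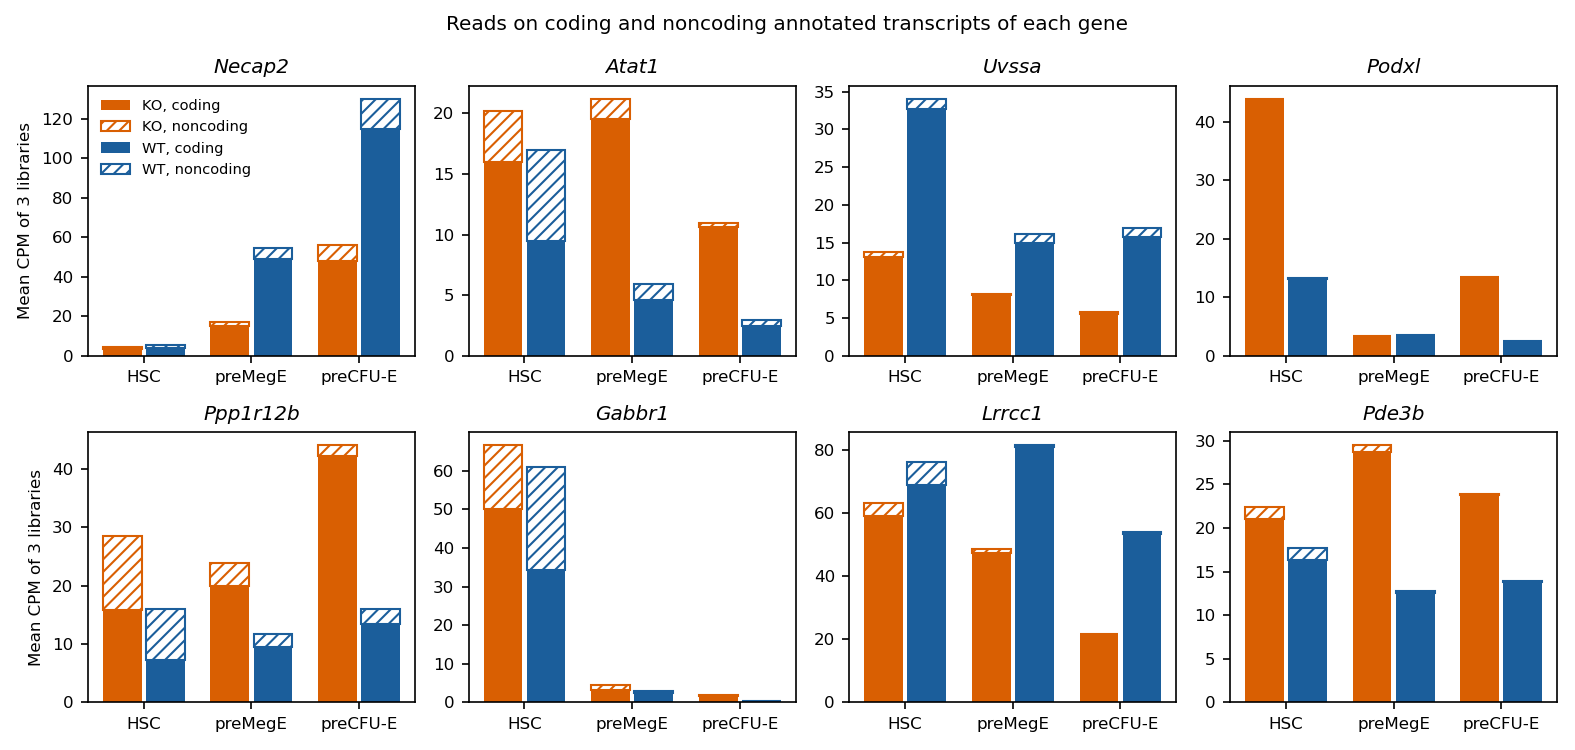
Mean CPM in KO and WT of the 8 genes with both kinds of transcript, divided into coding and noncoding parts, for the 3 populations. The coding part carries most of the difference in the progenitors except for Gabbr1 in preMegE (48.8%). In HSC the mean coding parts of Atat1, Podxl, Ppp1r12b, Gabbr1 and Pde3b are higher in KO than in WT, with overlap of libraries for Pde3b.

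The genes that were lower in KO were lower in their coding transcripts. Necap2 coding transcript averaged 15.2 CPM in KO and 49 CPM in WT preMegE, 91% of the gene's difference, and 47.9 CPM in KO and 115 CPM in WT preCFU-E, 90.5% of it. Uvssa coding transcripts averaged 13.1 CPM in KO and 32.7 CPM in WT HSC, 8.02 and 14.9 CPM in preMegE, and 5.54 and 15.8 CPM in preCFU-E. The NMD transcript Uvssa-203 was listed at 0 in every KO library, and also in all WT HSC libraries, WT preMegE library 2 and WT preCFU-E library 3, so its groups overlapped in each population. Lrrcc1 coding transcripts averaged 47.3 CPM in KO and 81.1 CPM in WT preMegE, and 21.6 CPM in KO and 53.6 CPM in WT preCFU-E.

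The division of Uvssa reads between its 2 coding transcripts was of the all-or-none kind that estimated counts can give. In KO preCFU-E all its coding reads were on Uvssa-201 (0.575, 0.371 and 0.52 TPM) with Uvssa-204 listed at 0, and in KO preMegE all were on Uvssa-204 (0.933, 1.07 and 0.956 TPM) with Uvssa-201 listed at 0. The sum over the gene does not depend on that division.

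The genes that were higher in KO were higher in their coding transcripts. Pde3b coding transcript averaged 28.7 CPM in KO and 12.6 CPM in WT preMegE, and 23.8 CPM in KO and 13.8 CPM in WT preCFU-E. Ppp1r12b-201, a coding transcript, had 2.78, 2.77 and 3.5 TPM in KO preCFU-E and 1.1, 1.16 and 1.25 TPM in WT preCFU-E, and Podxl coding transcript averaged 43.9 CPM in KO and 13.1 CPM in WT HSC. Atat1 coding transcripts averaged 19.5 CPM in KO and 4.57 CPM in WT preMegE, and 10.6 CPM in KO and 2.43 CPM in WT preCFU-E, while its noncoding ones averaged 1.69 CPM in KO and 1.39 CPM in WT preMegE.

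As a share of the gene's TPM, noncoding transcripts differed by at least 10 percentage points without overlap for 2 of the 8 genes in HSC (background 8.64% of 8453 genes), 2 in preMegE (5.18%) and 1 in preCFU-E (4.08%). The 2 in HSC, Atat1 and Ppp1r12b, and the 1 in preCFU-E, Atat1, were lower in KO (background 4.06% and 2.57% lower). In preMegE Atat1 was lower (background 2.06%) and Lrrcc1 higher in KO (background 3.12%). For HSC, preMegE and preCFU-E, the median difference over the 8 genes was -2.59, -2.25 and 0.742 points, beside 0.632, 0.792 and -0.484 points over all genes. As shares of estimated counts the 2 genes in HSC were Atat1 (-21.5 points) and Gabbr1 (-17.8 points, against -2.06 points by TPM). Gabbr1 then had 24.5, 17.8 and 34.8% in KO HSC and 46.1, 40.9 and 43.4% in WT HSC, while Ppp1r12b overlapped, at 40.3, 54 and 32.6% in KO HSC and 50.1, 53.2 and 62.6% in WT HSC. With NMD transcripts alone in place of all noncoding ones, 0, 1 and 0 of the genes differed in this way in HSC, preMegE and preCFU-E. The share of all genes is not given here for NMD transcripts alone or for estimated counts, so nothing is read from those counts.

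Atat1 was the gene whose noncoding share differed in all 3 populations. It was 51, 44.1 and 45.3% in KO HSC against 73.8, 66.2 and 62.9% in WT HSC, and 20.9, 21.4 and 17.9% in KO preMegE against 56.4, 53.1 and 23.8% in WT preMegE. In preCFU-E it was 2.02, 7.6 and 5.73% in KO against 44.3, 36.8 and 34.3% in WT. The KO libraries were below the WT libraries throughout, by 20.8, 24.3 and 33.4 points in the mean. As shares of estimated counts, a scale on which short transcripts weigh less, the preCFU-E difference was -13.9 points. In CPM the noncoding transcripts were at a very low level in preCFU-E and overlapped. They had 0.198, 0.267 and 0.49 CPM in KO and 0.769, 0.156 and 0.649 CPM in WT, while the coding transcripts were higher in KO, as given above.

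In HSC the Atat1 gene total overlapped between genotypes while its coding transcripts did not. The coding transcripts had 18.2, 12.2 and 17.6 CPM in KO and 10.1, 9.31 and 8.98 CPM in WT HSC. The noncoding transcripts overlapped in CPM, at 5.03, 3.48 and 4.06 CPM in KO and 8.36, 10.6 and 3.58 CPM in WT HSC, although their shares of the TPM were apart. Retained-intron transcripts held 46, 44.1 and 44.9% of the gene's TPM in KO HSC and 57.4, 58.7 and 57.2% in WT HSC.

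**Figure D4:**
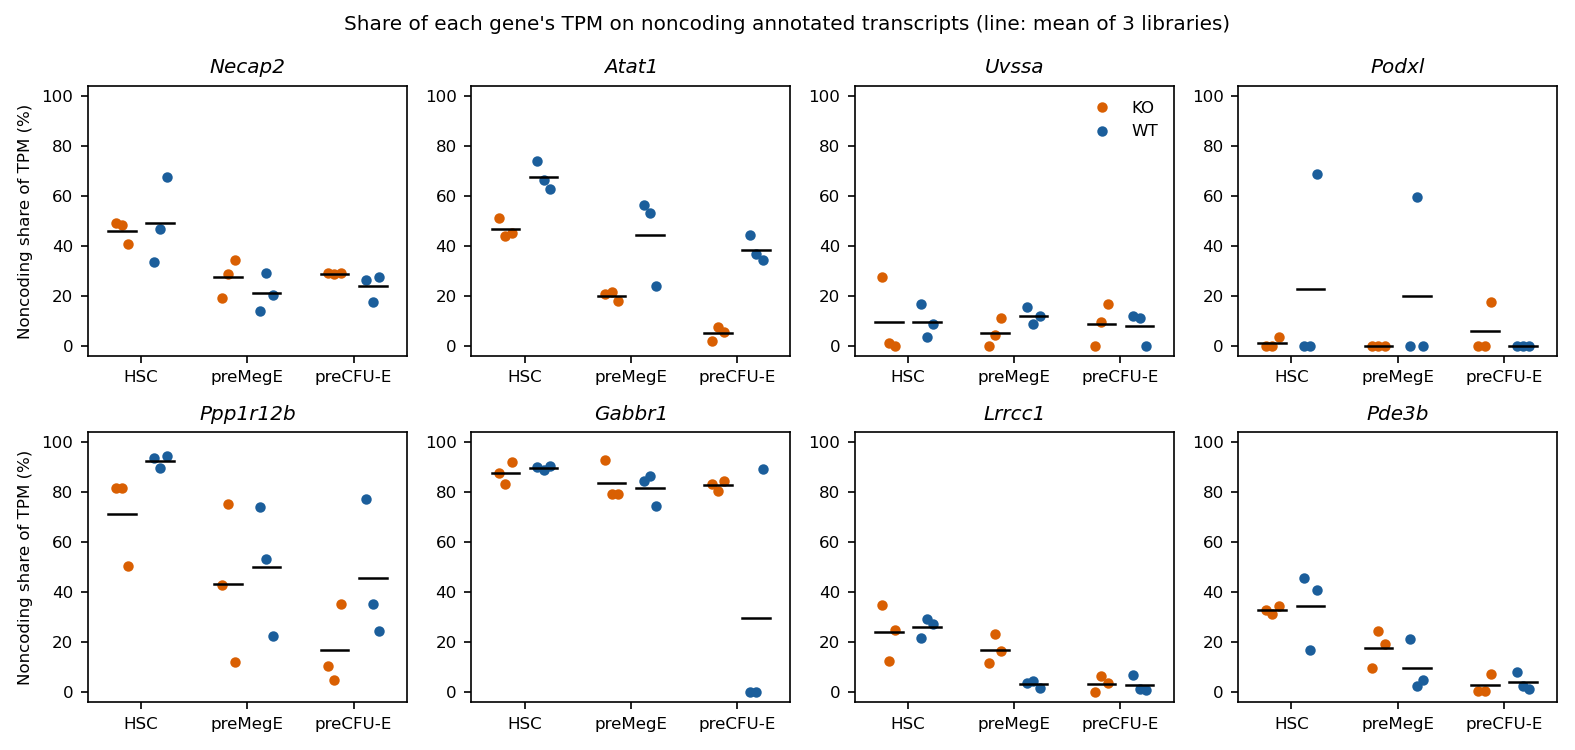
Share of each gene's TPM held by noncoding transcripts, in percent, in every library, for the 8 genes that have both kinds, with KO left of WT. Atat1 is lower in KO in all 3 populations, Lrrcc1 is higher in KO preMegE, and the other genes overlap in most populations.

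Ppp1r12b had a lower noncoding share in KO HSC, 81.8, 81.8 and 50.6% against 93.7, 89.8 and 94.6% in WT HSC. The largest part belonged in both genotypes to Ppp1r12b-207, a transcript of 277 bases that had 13.2, 3.72 and 5.8 TPM in KO HSC and 35.6, 9.41 and 19.4 TPM in WT HSC. Short transcripts receive a large TPM from few reads, and by mean CPM both parts of Ppp1r12b were higher in KO HSC, coding at 15.9 CPM in KO and 7.23 CPM in WT and noncoding, with overlap, at 12.6 CPM in KO and 8.82 CPM in WT. The same holds for Gabbr1-204, of 303 bases, which had 80.6% of the Gabbr1 TPM in KO and in WT HSC but 12.1 of 66.6 CPM in KO and 11.6 of 61 CPM in WT.

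Lrrcc1 went the other way in preMegE. Its noncoding share was 11.6, 23.3 and 16.5% in KO against 3.74, 4.64 and 1.95% in WT, a difference of 13.7 points. In CPM its noncoding transcripts averaged 1.34 in KO and 0.498 in WT, small beside the coding difference given above, and as a share of estimated counts the difference was 2.15 points. The NMD transcript behind it, Lrrcc1-208, is 794 bases long and had 0.952, 2.95 and 1.47 TPM in KO preMegE and 0.313, 0.839 and 0.0908 TPM in WT preMegE.

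In WT cells the noncoding share itself was tested between populations with limma. It was lower in WT preMegE than in WT HSC for 4 of the 8 genes, beside 31.1% of all genes tested (29.4% lower). Lrrcc1 averaged 3.45 ± 1.37% in WT preMegE and 26.2 ± 3.85% in WT HSC (SD, n = 3 each; limma adjusted p 0.00923), and this call held in all the alternatives tried, up to an adjusted p of 0.0426. Necap2 averaged 21.1 ± 7.58% in WT preMegE and 49.2 ± 17.2% in WT HSC (0.0146 by limma), Ppp1r12b 50 ± 25.8% and 92.7 ± 2.58% (0.0365), and Pde3b 9.68 ± 10.3% and 34.6 ± 15.5% (0.0378), and these 3 calls were lost in some fits without 1 library, as given in the closing section. The other 4 genes were not called (Atat1 0.0561, and 0.739 to 0.964 for Uvssa, Podxl and Gabbr1). Atat1 was called with an offset of 0.05 (limma adjusted p 0.0305), with a minimum of 5 TPM (0.0434) and without WT preMegE library 1 (0.0364). Reads in noncoding transcripts over all genes made up 9.74 to 12.6% in WT preMegE and 22.6 to 22.8% in WT HSC, so the whole library moved the same way, with a median of -13.1 points over all genes and -23 over the 8. Between WT preCFU-E and WT preMegE limma called 0 of the 8 genes, beside 0.154% of all genes, with 1 of the 8 (Gabbr1) at an unadjusted p below 0.05. Gabbr1 was called lower in WT preCFU-E when WT preCFU-E library 3 was left out (limma adjusted p 4.09e-06), on 4 to 6 reads of the gene per WT preCFU-E library.

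Internal exons that some transcripts of a gene include and others skip were compared next, by percent spliced in (PSI), the share of TPM in transcripts with the exon among those with or without it. Of 22 such exons in the 10 genes, 0 differed by at least 10 points without overlap in 2 or more populations (background 1.55% of 23999 exons of all genes tested), and 9 exons in 5 genes did so in 1 (background 11.3% in 1 or more). Exons of 1 gene share transcripts, so the 9 are not separate events. The Abhd14b exon among them, of 318 bases, had a PSI in HSC only in KO library 1 and WT library 3. The transcripts with or without it had 1.38 and 0.546 TPM in those libraries. The 4 exons shown here were chosen after their values were seen, because each one separates a coding transcript from an NMD or processed transcript. Their sequences are those of the GENCODE M21 transcripts on GRCm38, 5′ to 3′ in the sense of the gene, with the exon in capitals and 15 bases of the neighbouring exons in lower case, and for Atat1 only as far as the first stop codon.
Gabbr1 exon 15, chr17:37067214-37067364, plus strand: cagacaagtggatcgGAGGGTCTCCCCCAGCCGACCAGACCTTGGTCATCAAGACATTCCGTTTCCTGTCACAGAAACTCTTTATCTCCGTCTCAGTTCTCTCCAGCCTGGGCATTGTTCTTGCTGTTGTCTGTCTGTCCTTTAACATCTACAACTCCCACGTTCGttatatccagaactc
Lrrcc1 exon 5, chr3:14539629-14539804, plus strand: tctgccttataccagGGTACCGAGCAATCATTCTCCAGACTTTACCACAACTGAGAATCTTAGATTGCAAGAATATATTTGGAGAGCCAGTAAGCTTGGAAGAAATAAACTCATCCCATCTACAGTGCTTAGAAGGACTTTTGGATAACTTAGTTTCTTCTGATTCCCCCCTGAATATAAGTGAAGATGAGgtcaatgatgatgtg
Atat1 exon 5 of Atat1-204, within chr17:35902356-35902438, minus strand: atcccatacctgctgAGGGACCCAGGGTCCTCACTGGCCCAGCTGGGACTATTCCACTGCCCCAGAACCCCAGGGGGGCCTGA
Necap2 exon 6 of Necap2-209, chr4:141071581-141071695, minus strand: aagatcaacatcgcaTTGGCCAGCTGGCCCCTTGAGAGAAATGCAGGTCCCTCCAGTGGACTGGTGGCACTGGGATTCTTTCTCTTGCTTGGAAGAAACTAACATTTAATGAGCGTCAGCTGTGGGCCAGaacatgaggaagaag

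None of the 4 exons has a length that is a multiple of the codon, since they are 151, 176, 83 and 115 bases long. In Lrrcc1 and Gabbr1 the NMD transcript is the one that skips the exon, and in Atat1 the NMD transcript includes it. When Lrrcc1-204 skips exon 5, the new join reads into a stop codon at once, shown here in capitals.
Lrrcc1-204 join of its exons 4 and 5, across chr3:14537377-14539911, plus strand: tctgccttataccaggtcaaTGA

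That stop lies in exon 5 of 10 of Lrrcc1-204, 895 bases ahead of its last exon junction. The exon was included at 89.3, 97.4 and 87.2% in KO HSC, against 76.2, 73.4 and 72% in WT HSC. The KO libraries were all higher, so KO HSC had the smaller part of the NMD form. Lrrcc1-204 itself had 2.04, 0.257 and 3.52 TPM in KO HSC and 4.4, 6.16 and 6.48 TPM in WT HSC. Lrrcc1-208, the other NMD transcript, went the opposite way with overlap, at 8.11, 1.28 and 4.81 TPM in KO HSC and 0.103, 1.56 and 0.58 TPM in WT HSC. In the progenitors the Lrrcc1 gene was lower in KO. The exon was included there at a mean of 98.1% in KO and 98.8% in WT preMegE, and of 100% in KO and 98.4% in WT preCFU-E. A transcript that NMD degrades is undercounted in such shares, so they cannot show how often the exon was skipped. The part of its skipping in the gene's difference was not tested.

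The Atat1 exon carries a stop codon 65 bases in, 454 bases ahead of the last junction of Atat1-204. Its inclusion was 4.62, 1.7 and 10.1% in KO HSC, against 37.3, 10.3 and 23.6% in WT HSC, apart by a narrow margin. In preMegE it was 12.7, 7.26 and 10.3% in KO and 18.4, 31.9 and 9.86% in WT, and in preCFU-E 0, 6.62 and 3.26% in KO and 13.7, 0 and 24.4% in WT, so both progenitors overlapped. The means were lower in KO in all 3 populations. Atat1-204 itself was listed at 0 in all 6 HSC libraries, so the HSC inclusion came from transcripts annotated as retained intron or processed that also hold the exon, Atat1-215, Atat1-206 and Atat1-207, and not from the NMD transcript.

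The Gabbr1 exon was included at 95.7, 93.6 and 87.5% in KO HSC and at 48.1, 58.4 and 54.3% in WT HSC, a mean of 92.3% in KO against 53.6% in WT. The NMD transcript without it, Gabbr1-205, had 0.333, 1.02 and 1.21 TPM in KO HSC and 5.08, 3.34 and 3.48 TPM in WT HSC, or 2.55 ± 1.31 CPM in KO and 13.5 ± 2.47 CPM in WT (SD, n = 3 each). Gabbr1-205 also lacks a further exon of 186 bases, included at 89.9, 76.4 and 76.9% in KO HSC and 29.2, 33.7 and 48.2% in WT HSC, and its stop codon, in its exon 5 of 21, lies upstream of the 151-base exon. The 2 exons therefore measure the same transcript and are not separate events. In preMegE, on few reads, the 151-base exon ran from 21.4 to 100% in KO and from 25.8 to 100% in WT. In HSC the parts of Gabbr1 differed while its total overlapped. Its coding transcripts had 39.1, 70 and 40.9 CPM in KO HSC and 36.8, 35.3 and 31 CPM in WT HSC. They were apart by a narrow margin, with KO library 2 far above the other KO libraries. Its noncoding transcripts averaged 16.6 CPM in KO and 26.6 CPM in WT HSC.

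The Necap2 exon had a higher share in KO in both progenitors, where the gene was lower in KO. It is not among the 9 exons counted above, since neither of its forms alone differed by 10 points in any population. Alone, the form of 115 bases differed by 5.81 points in preMegE and 3.19 points in preCFU-E. The form of 137 bases differed by 9.98 and 2.12 points, with overlap in preCFU-E. Taken with its longer form of 137 bases, it was included at 15.8, 17 and 22.9% in KO preMegE and 4.25, 2.6 and 5.06% in WT preMegE. In preCFU-E it was included at 8.48, 3.08 and 7.06% in KO and 2.31, 0.244 and 0.722% in WT. The level of the transcripts with the exon overlapped in preMegE, at 1.77, 1.92 and 2.69 TPM in KO and 1.15, 1.19 and 2.11 TPM in WT, on 15 to 45 reads in KO and 16 to 23 in WT. It overlapped in preCFU-E too, at 2.28, 0.714 and 2.08 TPM in KO and 1.64, 0.198 and 0.546 TPM in WT. Those values rest on 27, 11 and 33 reads in KO and 31, 3 and 5 reads in WT preCFU-E. The coding Necap2-201 had 9.45, 8.29 and 8.57 TPM in KO and 24, 33.8 and 34.6 TPM in WT preMegE, so the transcripts without the exon differed and those with it overlapped.

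**Figure D5:**
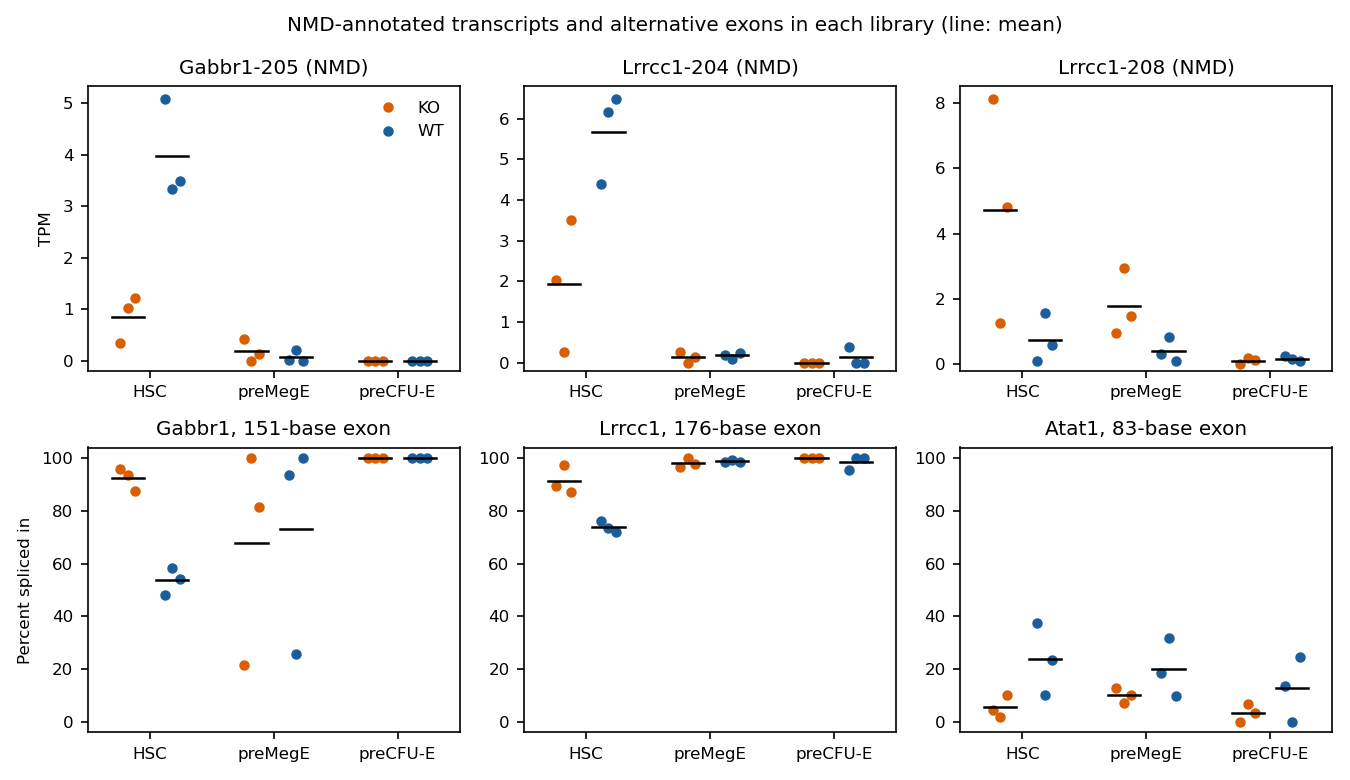
TPM of 3 NMD transcripts (top) and percent spliced in of the Gabbr1, Lrrcc1 and Atat1 exons (bottom) in every library, with KO left of WT and a line at the mean. In HSC, KO is lower for Gabbr1-205 and Lrrcc1-204, mostly higher for Lrrcc1-208, higher for the first 2 exons and lower for the Atat1 exon.

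Genes related to the 10 by function, 100 paralogs, binding partners and pathway genes, were tested in the KO against WT contrast, and 94 passed the filter on low counts. By edgeR 0 of the 94 were called in any population, beside 0.844%, 0.0603% and 0.153% of all genes in HSC, preMegE and preCFU-E. With background shares this low, 0 calls do not set the related genes apart. At an unadjusted p below 0.05 by edgeR there were 10, 5 and 7 of the 94. The share of all genes at that level is not given here, so nothing is read from these counts. DESeq2 called 1, 0 and 0. That 1 gene was Ap2a1, a subunit of the clathrin adaptor that Necap2 binds, in HSC (log2 1.00, adjusted p 0.0482 by DESeq2). The median log2 change of the related genes was -0.08, -0.09 and 0.03 in HSC, preMegE and preCFU-E, beside 0.01, 0.01 and -0.00 over all genes.

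None of the close paralogs was called. Necap1 had log2 changes of -0.45, 0.23 and -0.08, and Ppp1r12a of 0.03, 0.07 and -0.07, in HSC, preMegE and preCFU-E. Tmem86a, the other lysoplasmalogenase gene, had -0.81, -0.33 and 1.59, and Pde3a 0.50, -0.42 and 0.23. The Tmem86a value in preCFU-E (SE 0.75) rests on a very low level, a mean of 0.449 CPM in KO and 0.164 CPM in WT.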

How the data were processed

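The authors deposited, per library, the estimated count and TPM of every transcript. They came from Salmon 0.12.0, and the builds are mm10 and GRCm38.p6, per the submitters' processing notes. RNA was amplified with NuGEN Ovation kits, per the labels' protocols, and strandedness is not given in the sources used here. The 10 genes, the related genes and the marker lists were chosen with earlier results of these data known.

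Transcripts were matched to GENCODE M21 (136176 of 136288; the other 112 took up to 0.084% of reads). The sum of estimated counts per gene was rounded to whole numbers and fitted with edgeR 4.0.16 (quasi-likelihood, robust, TMM, filterByExpr) in R 4.3.3, over 18 libraries and 6 groups, leaving 12 residual degrees of freedom. Calls are Benjamini-Hochberg adjusted p below 0.05. Noncoding shares of TPM were fitted with limma 3.58.1 on the logit scale (offset 0.01, mean gene TPM of at least 1, mean share 1 to 99%), in 8453 genes. Transcripts were named where they had 10% or more of the gene in a group (44 of 80), with a few smaller NMD forms added after their values were seen. The rule for showing exons (10 points in at least 2 populations) found none, so those shown were chosen after their values were seen. The tests were also run on simulated data, with every simulated share set at the same TPM, unlike the 10 genes. The outcome is not given here, and nothing is read from it. The labels call replicates biological and do not name the animals, so p-values measure the spread between these libraries.

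Over 9930 genes, deviations of same-numbered libraries correlated at 0.513, 0.276 and 0.539 between WT preCFU-E and WT preMegE, so the numbers pair these samples, and at under 0.1 for at least 1 pair in the other comparisons. Alternatives were RLE factors, DESeq2 1.42.0, no filter on low counts, length-scaled counts, the replicate block, 2 groups alone, other offsets and minimum levels, shares of estimated counts, NMD transcripts alone, and leaving out each library.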

Additional observations from a re-analysis of the deposited data

Results flagged for a closer look

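The retained-intron share of Ppp1r12b differed in opposite directions in 2 populations, and the difference between them was not tested. In HSC it was 17.3, 33.5 and 17.9% of the gene's TPM in KO and 5.57, 15.1 and 9.38% in WT, a mean difference of 12.9 points. In preCFU-E it was 10.7, 5.11 and 9.74% in KO and 10.8, 35.2 and 24.5% in WT, a mean difference of -15 points, with KO library 1 and WT library 1 nearly level. Groups of 3 libraries are too small for a check for outlying samples.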

How the results depend on the processing

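Of 1224 recomputed values of 110 results, 129 counts of genes kept their approximate size and 971 other values were counted as unchanged. At the WT steps, unchanged meant the same sign and call, whatever the size. For KO against WT values it meant a move smaller than the spread between libraries, so values near 0 could change sign. Gabbr1 in HSC did so, from a log2 change of 0.13 to -0.09 without KO library 2. Alternatives other than a left-out library moved these counts: related genes called in HSC were 1 with length-scaled counts (Ercc5) and 1 with DESeq2, and in preCFU-E 4 with 2 groups alone (Pla2g6, Tuba1a, Slc9a3r1 and Kctd12), in place of 0. Genes with a lower noncoding share in WT preMegE than in WT HSC were 2 of the 8 with 2 groups alone, in place of 4. Genes past 10 points in noncoding share were 0 with NMD transcripts alone in HSC and in preCFU-E, 1 in preMegE with NMD transcripts alone or with estimated counts, and 2 in preCFU-E with estimated counts. Shares over all genes are not given for either of these alternatives.

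Leaving out each library gave 4 members changed at least 2-fold in HSC, 5 to 7 in preMegE and 9 in preCFU-E, and 0 to 4 related genes called in HSC (4 without KO HSC library 3, which were Ap2a1, Tuba1a, Gtf2h4 and Ofd1) and 0 in the others. It gave 6 to 7 members called between WT preMegE and WT HSC by gene counts and 1 to 4 by share, and 3 to 4 and 0 to 1 between WT preCFU-E and WT preMegE. Members past 10 points were 2 to 3, 2 to 3 and 1 to 2 in HSC, preMegE and preCFU-E. Over all genes, KO against WT calls were 89 to 595 in HSC, 4 to 9 in preMegE and 14 to 27 in preCFU-E, in place of 182, 13 and 33. With all libraries, these counts ran from 5 (2 groups alone) to 647 (DESeq2) in HSC, from 7 (length-scaled counts) to 57 (DESeq2) in preMegE and from 15 (length-scaled counts) to 252 (2 groups alone) in preCFU-E.

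Of the noncoding shares called lower in WT preMegE than in WT HSC, that of Necap2 was lost with estimated counts (limma adjusted p 0.0651), with 2 groups alone (0.088), and without WT HSC library 3 (0.0606) or WT preMegE library 1 (0.0591). That of Ppp1r12b was lost in 5 of the left-out fits (0.055 to 0.154), all but the one without WT preMegE library 1. That of Pde3b was lost with 2 groups alone (0.097) and in 4 left-out fits (without WT HSC library 1 or 3 or WT preMegE library 2 or 3, up to 0.157).

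Signs turned with length-scaled counts, Lrrcc1 between WT preMegE and WT HSC (-0.03), Ppp1r12b between WT preCFU-E and WT preMegE (-0.51), and Ppp1r12b (-0.72) and Atat1 (-0.17) in KO against WT HSC. Between WT preCFU-E and WT preMegE, Uvssa was -0.02 with no filter and -0.07 with 2 groups alone, with or without the replicate block, and Pde3b was -0.02 with 2 groups alone and -0.03 with the replicate block. Without 1 library, Uvssa ran from -0.02 to 0.11 and Pde3b from -0.00 to 0.14 (log2). The noncoding shares, as log2 odds, ran from -0.03 to 1.06 for Uvssa and -2.59 to 2.40 for Podxl between WT preMegE and WT HSC, and between WT preCFU-E and WT preMegE from -0.07 to 0.57 for Necap2, -0.94 to 0.06 for Atat1, -1.20 to 0.53 for Ppp1r12b and -1.02 to 0.06 for Lrrcc1. The cause was not tested. In the fit over 18 libraries the replicate block changed no member's call at either WT step.

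Few reads limit Gabbr1 in the progenitors, and shares of TPM rest on the division of reads among transcripts.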
